A study of Mus musculus with 4 samples.

Results

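The meningeal spots of 4 mouse brain sections are described here, comparing rNLS8 with control. They were taken by rule from spatial transcriptome arrays: among the spots lying under tissue and holding at least 1000 unique molecular identifiers (UMI, 1 per captured molecule), the 4% of each section in which Col1a1, Col1a2, Igf2, Igfbp2, Fmod and Aldh1a2 together took the largest share of UMI. This gave 477 spots of 11929 kept spots: 126 of 3150 in control replicate 1, 124 of 3100 in control replicate 2, 121 of 3030 in rNLS8 replicate 1 and 106 of 2649 in rNLS8 replicate 2. The 6 selecting genes were left out of every test.

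The study placed 5 µm sections of formalin-fixed, paraffin-embedded brain on Visium arrays, 2 sections from control and 2 from rNLS8 mice, all aged 11 weeks and all from a series sampled 3 weeks after doxycycline (Dox) was withdrawn. The labels give the genotypes only as "Control" and "rNLS8" and do not say which alleles the controls carry. As background, rNLS8 mice express human TDP-43 without its nuclear localization signal in neurons from a neurofilament heavy chain promoter, under a switch that doxycycline keeps off. Nothing in the labels says that the sections of a group came from separate animals, so the p-values below measure the spread between these sections, which may be technical.

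The meninges are the layered membranes around the brain. Their fibroblasts lay down collagens and matrix, secrete retinoic acid, prostaglandin D2 synthase and insulin-like growth factors, and form a barrier with transporters, while border macrophages and vessels lie between the layers. Beneath them the endfeet of surface astrocytes form the glia limitans. A Visium spot is wider than these membranes, so a meningeal spot also holds the cortex or other tissue under it, and in such sums fewer cells of a type and less RNA per cell cannot be told apart.

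By eye, most of the selected spots formed arc-shaped bands, with scattered single spots elsewhere, as the map of spots shows. Their median distance from the rim of the kept tissue was 1, 5, 2 and 3 array steps in the control and then the rNLS8 sections, each in the order of their replicate number, against 6, 6, 8 and 5 steps for all other spots. Of the meningeal spots, 78.6% in control replicate 1, 87.1% in control replicate 2, 90.9% in rNLS8 replicate 1 and 86.8% in rNLS8 replicate 2 touched another meningeal spot on the array. In the same order of sections, they fell into 45, 26, 18 and 31 separate patches, single spots included. The largest patch held 14, 25, 33 and 14 spots. The smallest marker share inside the selection and the largest outside it were 0.187% and 0.186% in control replicate 1, 0.137% and 0.136% in control replicate 2, 0.136% and 0.135% in rNLS8 replicate 1, and 0.313% and 0.312% in rNLS8 replicate 2. The rule therefore took spots richer in the selecting genes from rNLS8 replicate 2, where the 6 genes made up 0.599% of the summed UMI, against 0.431%, 0.331% and 0.348% in control replicate 1, control replicate 2 and rNLS8 replicate 1.

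**Figure D1:**
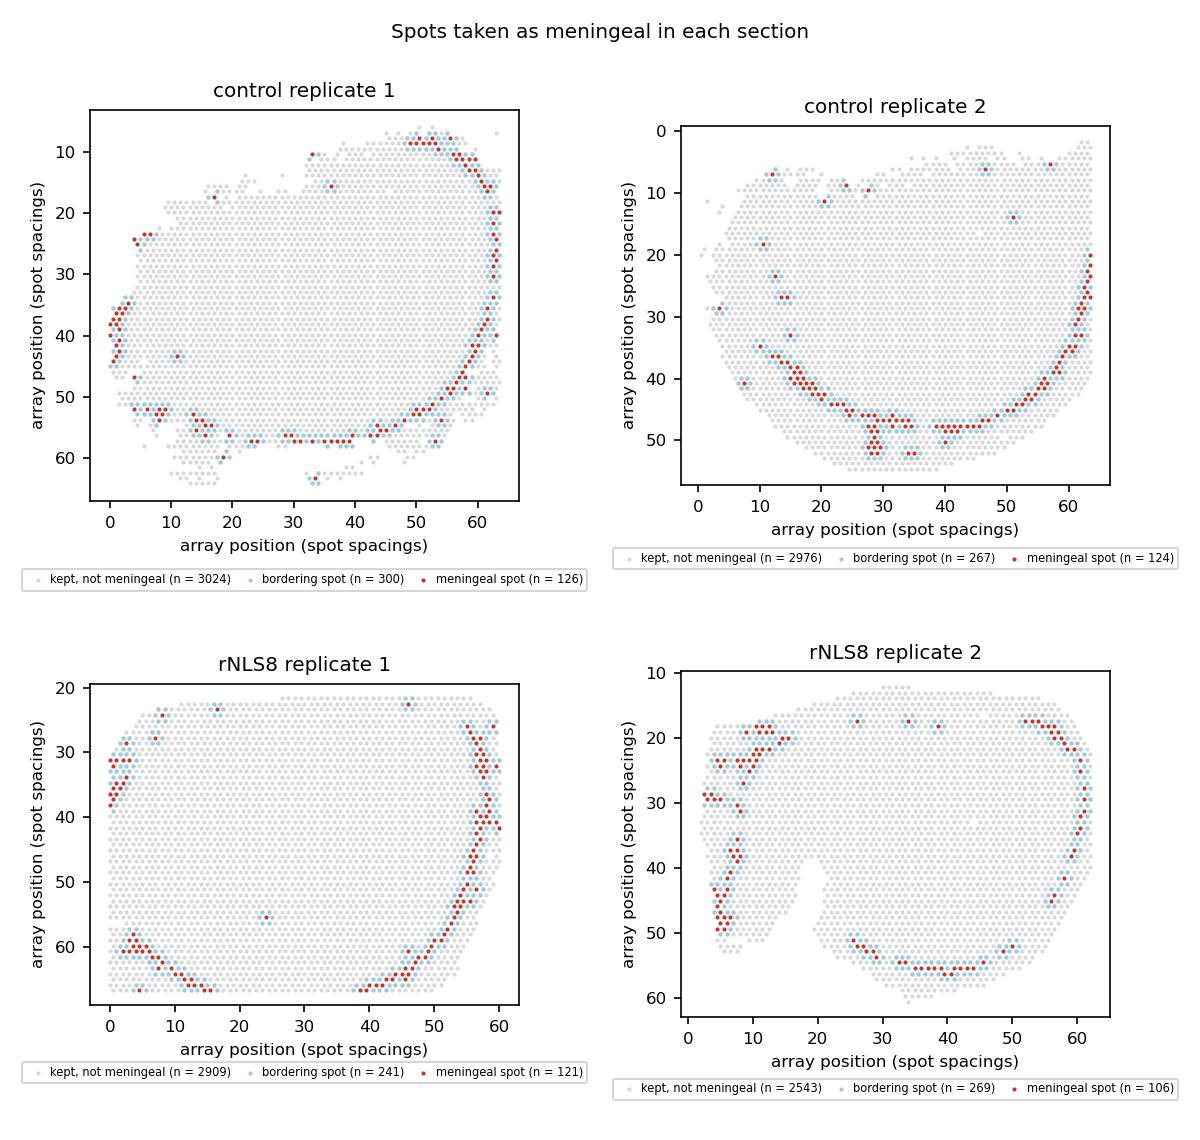
Kept spots of each section at their place on the array, in units of the spot spacing (both axes), with meningeal spots in red, the spots touching them in light blue and the remaining kept spots in grey; the grey count of each legend includes the blue spots. The 126, 124, 121 and 106 meningeal spots lie mostly in bands, some at the rim and some inside it, with scattered single spots.

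Control replicate 1 and rNLS8 replicate 2 stood apart in the selection itself. Control replicate 1 held the shallowest meningeal spots, with a median of 2586 UMI per spot against 5189 in control replicate 2, 5765 in rNLS8 replicate 1 and 5992 in rNLS8 replicate 2. Its meningeal spots also lay at the rim of the kept tissue most often, in 36.5% of cases against 10.5%, 12.4% and 8.49%, where the shares of all other spots at the rim were 12.9%, 10.1%, 6.91% and 9.24%. The summed meningeal depth was 320653, 635703, 716590 and 669686 UMI in the same order of sections. Transcripts of Y-linked genes were counted at 0, 107, 164 and 146 CPM (UMI counts scaled to a common library total) in meningeal spots, although the labels call replicate 1 of each group female and replicate 2 male, so the library labelled rNLS8 replicate 1 does not match its label. The counts of genes called in meningeal spots and for the difference from all other spots are therefore also given without each section.

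What marked these spots beyond the selecting genes was meningeal in character and is given as a description, because the spots were chosen on genes expressed by the same cells. Among 3706 genes with at least 20 UMI in every meningeal sum, the highest lowest ratio over the other spots belonged to Mpzl2, whose share was 78.6, 59.8, 31.4 and 29.8 times that of the other spots in the control and then the rNLS8 sections, each in the order of their replicate number. Mpzl2 was followed by the transporter gene Slc26a7 (at least 24.4 times in every section), the forkhead factor gene Foxc2 (22.7), Asgr1 (21.99), the homeobox gene Six2 (21.7), Lypd2 (21.5), the organic anion transporter gene Slc22a6 (20.9), Itgbl1 (20.6), Foxd1 (17.6) and Fgfbp1 (17.2). Foxc2, Foxd1 and Slc22a6 are among 29 fibroblast genes listed as meningeal, whose summed level was 23606, 18377, 20968 and 25213 CPM in meningeal spots and 1399, 1073, 1626 and 2095 CPM in all other spots. These markers go with the label in all 4 sections, but the choice of spots favoured them, so they are no separate support for it. Some spots rest on little: the lowest sum of the selecting genes in a spot was 2, 2, 3 and 11 UMI. Only 1 selecting gene was detected in 7, 5, 1 and 0 meningeal spots.

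Tissue under the membranes was present in the same spots. Genes listed for neurons summed to 10588, 9935, 7332 and 6320.4 CPM, those for oligodendrocytes to 11431, 9157, 9973 and 8068 CPM and those for astrocytes to 9159, 8885, 7603 and 8395 CPM. Ttr, which defines choroid plexus, was nearly absent, with 1, 0, 0 and 3 UMI. Cd3e, which defines T cells, had 0 UMI in all 4 sums, which allows up to 3 UMI in each, and of 24 genes listed for T and natural killer cells 1 passed the filter on low counts.

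Tardbp, the mouse gene for TDP-43, had 0 UMI in the meningeal spots of both controls and 4 and 6 UMI in those of rNLS8 replicates 1 and 2. It also had 0 UMI in all other spots of both controls, so the counts separate the genotypes as labelled but cannot be read as a level of the mouse transcript. The probes behind this gene are not described in the sources used here.

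Within the meningeal spots the genes that rose in rNLS8 included the interferon-induced Bst2, Irf7 and Rtp4 and the retinoic acid hydroxylase gene Cyp26b1, and those that fell included the neuronal Nefl and Calb1, while none of the listed fibroblast genes passed the test. The spots were chosen on genes of the same fibroblasts, so for fibroblast genes the genotype cannot be told apart from the choice of spots. Of 8793 genes tested on the sums per section (edgeR's quasi-likelihood test, trimmed-mean scaling, Benjamini-Hochberg adjustment over all genes tested), 19 passed an adjusted p of 0.05, which is 0.216% of them. The 7 higher genes (0.0796%) were Irf7, Rtp4, Cyp26b1, Lgals3bp, B2m, Bst2 and Pdrg1, and the 12 lower genes (0.136%) included Igfn1, Sowaha, Scg5, Calb1, Nrn1, Rgs4, Rasgef1a, Camkk2, Prkcb, Nefl and Dgkb. For all 19 the 2 groups of sections did not overlap. The plot of the called genes by section shows this on a common axis. With 2 sections a group, both rNLS8 sections lay above both controls for 20.4% of all tested genes and below them for 19.9%, so a lack of overlap alone says little. The number of calls rested on single sections: leaving out a control section gave 100 (replicate 1) or 353 (replicate 2), and leaving out an rNLS8 section gave 21 (replicate 1) or 5 (replicate 2). B2m and Igfn1 passed in all 4 of these fits.

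**Figure D2:**
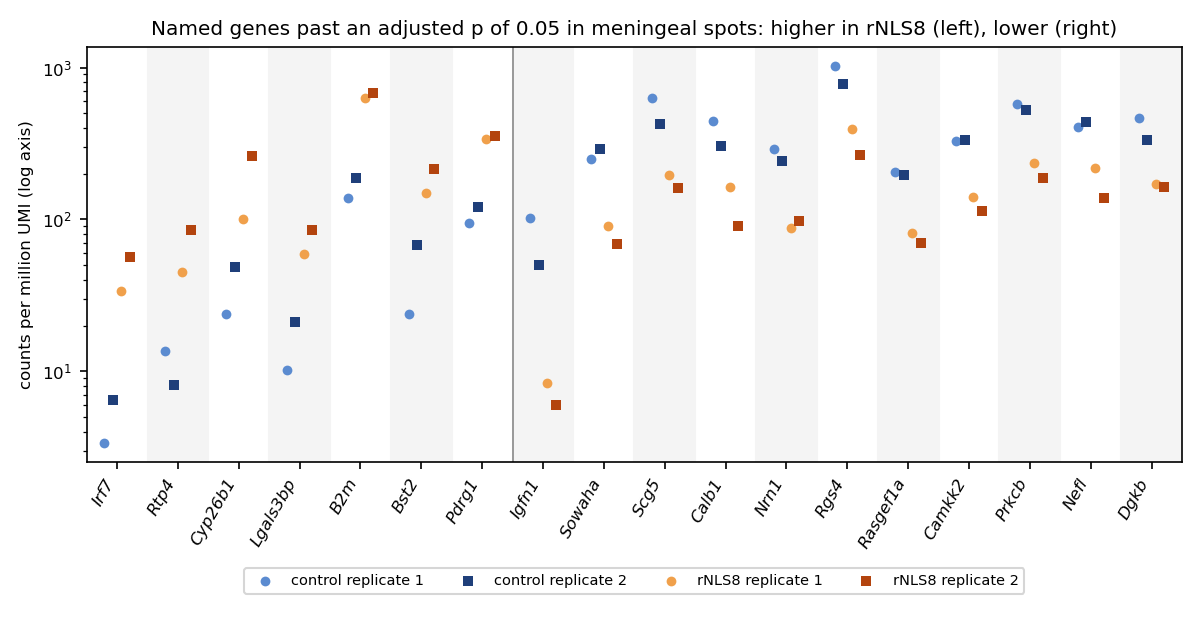
Level of the called genes named in the text in the meningeal spots of each section, in CPM after trimmed-mean scaling on a log axis, with 1 point per section. Both rNLS8 sections lie above both controls for the 7 genes left of the line and below them for the genes right of it.

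Retinoic acid is made from retinol by retinaldehyde dehydrogenases, of which Aldh1a2 is among the selecting genes, and is broken down by the Cyp26 enzymes. Cyp26b1 (chromosome 6, 84571414 to 84593908, RefSeq on GRCm38.p6, the assembly known as mm10) had 7 and 30 UMI in the meningeal spots of control replicates 1 and 2 and 72 and 174 UMI in those of rNLS8 replicates 1 and 2. On the scaled level these were 23.7, 48.7, 101 and 259.7 CPM. Both rNLS8 sections lay above both controls, and rNLS8 replicate 2 lay far above the rest. Cyp26b1 rose by 2.18 ± 0.42 on the log2 scale (± SE, n = 2 sections a group, edgeR adjusted p = 0.0304), and it also passed with DESeq2 (adjusted p = 0.0148). Without rNLS8 replicate 2 its adjusted p was 1.00 and its log2 fold change 1.37. The share of UMI taken by the selecting genes was highest in rNLS8 replicate 2 as well. With 1 common marker-share cutoff for the 4 sections the adjusted p of Cyp26b1 was 0.0107.

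Per spot, Cyp26b1 was seen more often in the meningeal spots of rNLS8 replicate 2 than in those of the other sections. After thinning every spot to 1000 UMI, 2.38% and 3.23% of meningeal spots held a Cyp26b1 UMI in control replicates 1 and 2, 4.96% in rNLS8 replicate 1 and 20.8% in rNLS8 replicate 2 (95% exact binomial interval 13.5% to 29.7%). In all other spots the thinned shares were 1.03%, 0.806%, 0.963% and 2.40%. Without thinning the meningeal shares were 5.56%, 19.4%, 27.3% and 59.4%. The thinned shares of the first 3 sections rest on 3, 4 and 6 spots, so they set no order among themselves, and these intervals cover counting error only.

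Of 16 genes listed for the retinoic acid pathway, 12 passed the filter on low counts, 1 passed the test and the median log2 fold change of the 12 was 0.16, against 0.0022 over all genes. Stra6, the membrane receptor that takes up retinol bound to its carrier, had 112 and 73.0 CPM in the controls and 34.97 and 22.4 CPM in rNLS8, with no overlap. Its log2 fold change of -1.61 ± 0.35 missed the threshold (edgeR adjusted p = 0.0640). The retinaldehyde reductase gene Dhrs3 had 50.8, 167, 74.1 and 113 CPM, and the retinoic acid receptor gene Rarg 37.2, 43.8, 46.2 and 53.7 CPM. For Dhrs3 the groups overlapped, for Rarg they did not, and neither passed. Aldh1a2 itself, described only, took 371, 135, 218 and 317 CPM of the meningeal sums, with overlapping groups. Cyp26a1 had 0 UMI in all 4 sums.

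Interferons act through receptors and relay factors such as Stat2 and Irf9 on effector genes that block viruses, and Irf7 amplifies the response. Sequences before a transcript start of the higher genes are shown because this family shares a known promoter element, the interferon-stimulated response element. It was searched as GAAANNGAAA, or TTTCNNTTTC on the other strand, in the 250 bases before each transcript start that the RefSeq table used here lists (GRCm38.p6). That start need not be the outermost end of the gene: for Irf7 and Cyp26b1 it lies inside the gene's bounds, and the window of Pdrg1 lies wholly within the gene. The table matched 7 of the 10 genes named as highest, that is 6 of the 7 called genes and Ctss, which missed the threshold. Of these 7, 3 held a match, shown 5′ to 3′ on the gene's strand with the match in capitals:

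B2m: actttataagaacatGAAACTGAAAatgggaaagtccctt

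Bst2: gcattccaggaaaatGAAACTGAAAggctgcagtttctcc

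Ctss: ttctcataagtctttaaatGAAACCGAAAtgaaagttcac

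These windows lie at chr2:122147533-122147572 on the plus strand, chr8:71537572-71537611 on the minus strand and chr3:95526746-95526785 on the plus strand. The B2m match ran from 139 to 130 bases before that start, the Bst2 match nearest the start from 124 to 115 and the Ctss match from 21 to 12. In the windows searched, Irf7, Lgals3bp, Pdrg1 and Cyp26b1 held no such letters. Of all 27025 genes that the table lists, 3.46% held a match, and of the 37 listed interferon effector genes in it 48.6% did. A match describes letters only and shows no binding.

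B2m, listed here under class I antigen presentation, and the effector Bst2 are treated first because their windows are shown. B2m, the light chain that every class I antigen-presenting molecule needs (chromosome 2, 122147687 to 122153082), had 139 and 188 CPM in the controls and 629.5 and 676 CPM in rNLS8. The groups were far apart and each group was narrow, with control at 163 ± 34.9 CPM and rNLS8 at 653 ± 33.0 CPM (SD, n = 2). B2m rose by 1.97 ± 0.24 on the log2 scale (edgeR adjusted p = 0.00112), and passed without each section in turn (adjusted p at most 0.00445). After thinning to 1000 UMI a B2m UMI was found in 11.9%, 23.4%, 43.8% and 41.5% of meningeal spots, and without thinning in 23.8%, 54.8%, 94.2% and 93.4%. In all other spots the thinned shares were 4.00%, 7.59%, 24.8% and 34.9%.

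Bst2, which tethers enveloped viruses to the cell surface (chromosome 8, 71534255 to 71537472), had 23.7, 68.1, 148 and 215 CPM and rose by 1.82 ± 0.34 on the log2 scale (adjusted p = 0.0267). Irf7 (chromosome 7, 141263183 to 141266499) had 3.38, 6.49, 33.6 and 56.7 CPM and rose by 2.99 ± 0.59 (adjusted p = 0.0350), from 1 and 4 UMI in the controls. Rtp4 had 13.5, 8.11, 44.8 and 85.1 CPM (2.67 ± 0.50, adjusted p = 0.0267). In all 3 genes both rNLS8 sections lay above both controls, with rNLS8 replicate 2 the highest. The secreted glycoprotein gene Lgals3bp had 10.2, 21.1, 58.8 and 85.1 CPM and rose by 2.04 ± 0.41 (adjusted p = 0.0385). Irf7, Rtp4 and Lgals3bp rest on few control UMI and did not pass with DESeq2 (adjusted p = 0.241, 0.141 and 0.252), and without rNLS8 replicate 2 none of these 3 nor Bst2 passed with edgeR.

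Of 48 listed interferon effectors 43 were counted in the files and 22 passed the filter. Of the 22, 3 passed the test (Bst2, Lgals3bp and Rtp4) and 15 did not overlap between groups, all of them higher, beside 20.4% of all genes. Their median log2 fold change was 1.17, and it was 1.56 over the 38 members tested in all other spots, which is a different set of genes. The filter keeps a gene that is high enough in 1 group alone. Members with few control UMI, such as Rtp4 (4 and 5 UMI in the controls, 32 and 57 in rNLS8), therefore entered only through rNLS8. Such members tilt the counts without overlap and the medians upward, here and in the lists below. Ifi27 had 77.9, 101, 185 and 275 CPM (1.32 ± 0.27, adjusted p = 0.0526), and Oasl2, of the oligoadenylate synthetase family, had 37.2, 45.4, 78.3 and 191 CPM (1.66 ± 0.39, adjusted p = 0.0958). Both missed the threshold although their groups did not overlap. Ly6e had 67.7, 164, 186 and 216 CPM and the guanylate-binding protein gene Gbp3 44.0, 29.2, 43.4 and 74.6 CPM, with adjusted p of 0.487 and 0.572.

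Of the 17 receptor and relay genes, 10 were tested, 1 rose (Irf7) and 7 did not overlap between groups, all higher, beside 20.4% of all genes. The median log2 fold change of the 10 was 0.97, against 0.69 over the 15 tested in all other spots. Usp18, which holds the interferon receptor in check, had 10.2, 11.4, 40.6 and 65.7 CPM (2.25 ± 0.48, adjusted p = 0.0547). The receptor gene Ifnar2 had 23.7, 43.8, 43.4 and 34.3 CPM (adjusted p = 0.974). Stat2 had 13.5, 29.2, 40.6 and 46.3 CPM and Irf9 20.3, 24.3, 46.2 and 59.7 CPM (adjusted p = 0.549 and 0.274), so for these relay factors both rNLS8 sections lay above both controls, while for the receptor the groups overlapped. Ifng had 0 UMI in all 4 meningeal sums.

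Class I antigen presentation was represented by 9 tested genes of 20, of which B2m passed. Of the 9, 5 did not overlap between groups, all higher, beside 20.4% of all genes. The median log2 fold change of the 9 was 0.66, against 0.70 over the 17 tested in all other spots. Tap2, a subunit of the peptide transporter, had 118, 148, 185 and 245 CPM (adjusted p = 0.389), and its partner Tapbp had 240.3, 316, 333 and 464 CPM (adjusted p = 0.559). H2-D1 had 10, 0, 56 and 0 UMI, a pattern that follows replicate number and not genotype, and the near-identical genes of this family may share probes or reads, so its level is uncertain. H2-K1 had 3, 9, 7 and 12 UMI and was not tested. Of 10 class II genes 5 were tested and none passed (edgeR, 0 at an unadjusted p under 0.05, 0 with DESeq2), and Cd74, the invariant chain, had 274, 319.6, 306 and 493 CPM.

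Border macrophages, which line the membranes, were represented by few counts. Of 18 listed genes 5 were tested and none passed (edgeR, 1 at an unadjusted p under 0.05, 0 with DESeq2). The mannose receptor gene Mrc1 had 3, 11, 18 and 26 UMI and a log2 fold change of 1.06 ± 0.50 (adjusted p = 0.548), and Pf4 had 27.1, 64.9, 76.9 and 80.6 CPM. Summed over the list the level was 298, 311, 326 and 469 CPM, with control replicate 1 the lowest and rNLS8 replicate 2 the highest.

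Genes of disease-associated microglia, the state taken up by microglia near damage, were measured for 19 of 25 members. None passed (edgeR, 9 at an unadjusted p under 0.05, 0 with DESeq2), and 13 did not overlap between groups, all higher, beside 20.4% of all genes. The median log2 fold change of the 19 was 0.52 against 1.13 over the 21 tested in all other spots. The lysosomal protease gene Ctss had 74.5, 112, 221 and 233 CPM (1.23 ± 0.26, adjusted p = 0.0547). Cst7, a cystatin gene of this state, had 0 UMI in both controls and 11 and 15 UMI in rNLS8 (adjusted p = 0.0852). Apoe, also made by meningeal and other cells, had 2850, 3768, 3316 and 3757 CPM with overlapping groups. For the homeostatic genes P2ry12 (27.1, 21.1, 21.0 and 20.9 CPM) and Csf1r (105, 102, 113 and 92.6 CPM) the groups lay close together, and none of 8 tested homeostatic genes passed (edgeR, 0 at an unadjusted p under 0.05, 0 with DESeq2). How far microglia in the tissue under the membranes contribute to these values was not tested.

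Complement and chemokine genes gave no call in the meningeal spots. Of 16 complement genes 6 were tested and none passed (edgeR, 2 at an unadjusted p under 0.05, 0 with DESeq2). C1qa, C1qb and C1qc, which together form C1q, were higher in rNLS8 without overlap, beside 20.4% of all genes. Of these, C1qc had 118, 123, 214 and 249 CPM (0.93 ± 0.24, edgeR adjusted p = 0.148). Of 27 chemokine and cytokine genes 6 were tested and none passed (edgeR, 2 at an unadjusted p under 0.05, 0 with DESeq2). The chemokine genes Cxcl10, with 1, 3, 6 and 22 UMI, and Ccl5, with 0, 0, 15 and 3 UMI, fell below the filter.

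The fibroblast genes that define the meninges passed the test in no case. Of 29 listed genes 28 were tested, none passed (edgeR, 2 at an unadjusted p under 0.05, 0 with DESeq2) and the median log2 fold change was 0.17. Over the 28 tested in all other spots the median was 0.56. Ptgds, the prostaglandin D2 synthase and the most abundant of them, had 17483, 12318, 14952 and 17572 CPM (0.13 ± 0.25, adjusted p = 0.934), with control replicate 1 and rNLS8 replicate 2 alike. The forkhead gene Foxc1, needed to form the meninges, had 355, 282, 252 and 310.5 CPM and Zic1 748, 464, 526 and 627 CPM. In both genes the control sections differed from each other by more than the group means did. Ogn, a small leucine-rich proteoglycan, had 44.0, 76.2, 85.3 and 149 CPM (0.87 ± 0.33, adjusted p = 0.389). An adjusted p above the threshold does not show that these levels were alike. The spots were chosen in each section on genes of the same cells, so this comparison cannot separate the genotype from that choice. The list summed to 23606, 18377, 20968 and 25213 CPM. These sums rank the sections as the share of the selecting genes did (0.431%, 0.331%, 0.348% and 0.599%). The same limit holds for other genes of these cells, such as the collagens below.

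Among the collagens left after the selecting Col1a1 and Col1a2, 15 of 21 were tested and none passed (edgeR, 3 at an unadjusted p under 0.05, 0 with DESeq2). The fibrillar gene Col3a1 had 88.0, 94.1, 71.3 and 184 CPM, and the basement membrane genes Col4a1 and Col4a2 had 94.8, 193, 147 and 194 CPM and 122, 211, 144 and 175 CPM. In all 3 the groups overlapped. Of the 15, both rNLS8 sections lay above both controls for 3 and below them for 1, beside 20.4% and 19.9% of all genes. The log2 fold changes of the 15 ran from -1.84 to 1.23. The 1 below was Col13a1, a transmembrane collagen, with 54.2 and 47.0 CPM in the controls against 13.99 and 13.4 CPM in rNLS8. Its log2 fold change of -1.84 ± 0.42 missed the threshold (edgeR adjusted p = 0.0875). Of the 27 matrix and remodelling genes tested none passed either (edgeR, 3 at an unadjusted p under 0.05, 0 with DESeq2), and fibronectin, Fn1, had 328, 427, 434 and 612 CPM (adjusted p = 0.602).

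Insulin-like growth factors are bound and held by the Igfbp proteins, and Igf2 and Igfbp2 were among the selecting genes. Of the 10 other family members tested none passed (edgeR, 3 at an unadjusted p under 0.05, 0 with DESeq2), and 8 had a negative log2 fold change. Igfbp5 had 2671 and 2422 CPM in the controls and 1680.2 and 1249 CPM in rNLS8 (-0.80 ± 0.23, adjusted p = 0.216). Igfbp3 had 81.2, 167, 69.9 and 70.2 CPM and Igfbp4 94.8, 117, 53.2 and 62.7 CPM, so in these 3 binding protein genes both rNLS8 sections lay below both controls, beside 19.9% of all genes. Igf2 and Igfbp2, described only, took 343, 322, 373 and 597 CPM and 1456, 1174, 1148 and 2399.6 CPM of the meningeal sums.

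No transport or vessel gene passed the test. Of 15 tested barrier genes none passed (edgeR, 0 at an unadjusted p under 0.05, 0 with DESeq2): the organic anion transporter gene Slc22a8 had 125, 122, 143 and 146 CPM and the glucose transporter gene Slc2a1 179, 521, 279.8 and 259.7 CPM. Of 15 endothelial and 13 mural genes none passed (edgeR, 3 and 3 at an unadjusted p under 0.05, 0 and 0 with DESeq2). The median log2 fold changes were -0.25 and -0.34. The smooth muscle genes Acta2 (162, 376, 125 and 133 CPM) and Myh11 (40.6, 135, 47.6 and 52.2 CPM) were highest in control replicate 2, as was the elastic fibre gene Eln (244, 699, 115 and 324 CPM). For Acta2 control replicate 1 also lay above both rNLS8 sections, while for Myh11 and Eln the groups overlapped. The summed mural level was 1053, 1828, 930.3 and 1078 CPM.

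**Figure D3:**
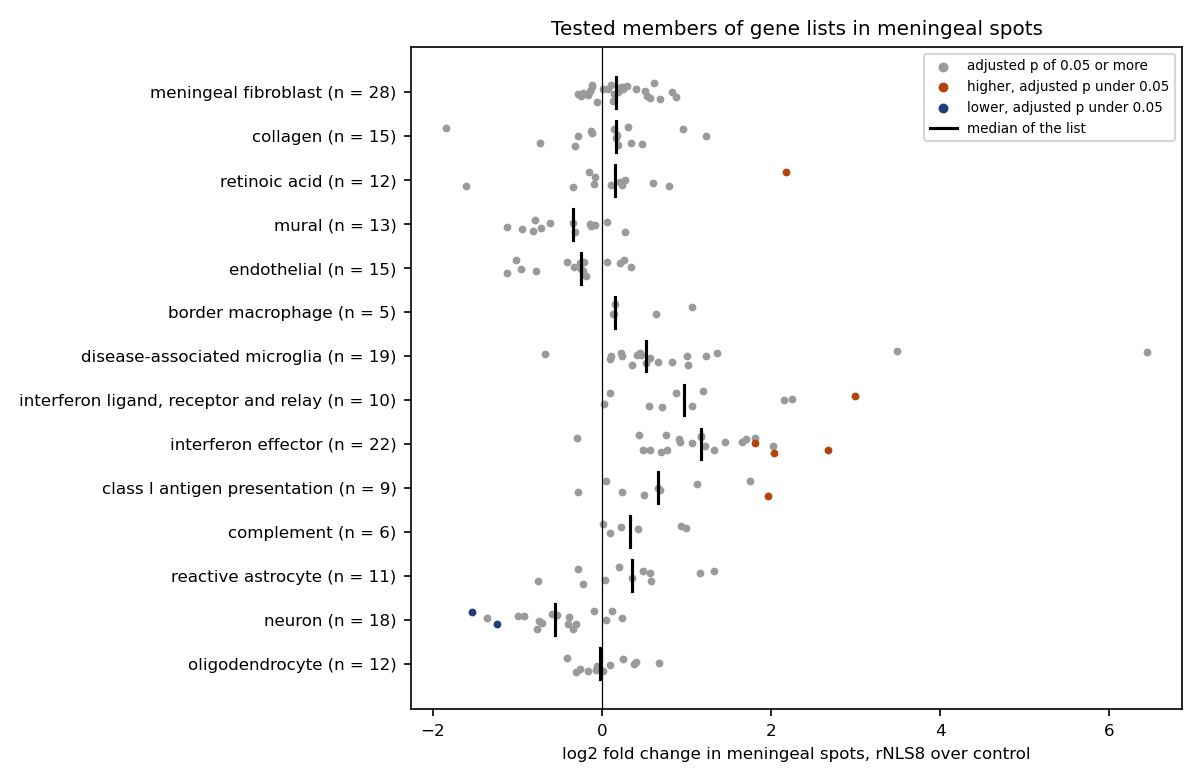
Log2 fold change in meningeal spots for the tested members of 14 gene lists, with 1 point per gene, a bar at the list's median and colour for an adjusted p under 0.05. The interferon effectors have a median of 1.17 and the neuron genes one of -0.56, while the meningeal fibroblast genes lie around 0.17; the point farthest right is Cst7, whose controls held 0 UMI, so its position is no measured fold.

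Of 18 tested neuron genes 2 fell in rNLS8 (Nefl and Calb1), none rose and 16 did not pass. Of the 18, 9 did not overlap between groups, all lower, beside 19.9% of all genes. The median log2 fold change of the 18 was -0.56 against -0.43 over the 21 members tested in all other spots. Calb1, which encodes a calcium-binding protein, had 447, 305, 164 and 91.1 CPM and fell by 1.53 on the log2 scale (SE 0.28, adjusted p = 0.0244). The neurofilament light chain gene Nefl had 406, 435, 217 and 137 CPM and fell by 1.25 (SE 0.25, adjusted p = 0.0366). The synaptic vesicle gene Snap25 had 2562, 3022, 1998 and 1336 CPM (adjusted p = 0.274), and the vesicular glutamate transporter gene Slc17a7 had 2772, 1814, 1738 and 1944 CPM with overlapping groups.

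Of the other genes that fell, Igfn1 had the greatest change, with 102 and 50.3 CPM in the controls and 8.39 and 5.97 CPM in rNLS8, from 30, 31, 6 and 4 UMI. It fell by 3.25 on the log2 scale (SE 0.50, adjusted p = 0.00665) and the groups were far apart. Sowaha had 250.5, 289, 90.9 and 68.7 CPM and fell by 1.76 (adjusted p = 0.00529). Scg5, a chaperone of prohormone processing, had 633, 423, 196 and 161 CPM and fell by 1.54 (adjusted p = 0.00898), and Nrn1, the synapse-stabilizing neuritin, had 291, 243, 88.1 and 97.0 CPM and fell by 1.51 (adjusted p = 0.00898). The G-protein regulator gene Rgs4 had 1026, 775, 393 and 266 CPM and fell by 1.44 (adjusted p = 0.0123). Camkk2, an upstream kinase of calcium signalling, had 328, 331, 139.9 and 113 CPM, and protein kinase C beta, Prkcb, had 572, 524, 236 and 188 CPM, which were falls of 1.38 and 1.36 (adjusted p = 0.0123 and 0.0122). For Rasgef1a (206, 196, 81.1 and 70.2 CPM) and Dgkb (464, 333, 172 and 164 CPM) the adjusted p was 0.0205 and 0.0350. Pdrg1, the remaining higher gene, had 94.8, 120.0, 339.95 and 357 CPM and rose by 1.67 ± 0.24 (adjusted p = 0.00529).

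Whether these changes were larger or smaller in meningeal than in all other spots was tested as the difference of the log2 fold changes, with the section as a block. In all other spots no gene of 13382 passed (edgeR, 2136 at an unadjusted p under 0.05, smallest adjusted p 0.0959; DESeq2 was not run there), and the log2 fold changes of 5 of the called genes are given for both kinds of spot. Pdrg1 had 1.67 in meningeal and 1.62 in other spots, Igfn1 -3.25 and -2.45, Sowaha -1.76 and -1.56, Scg5 -1.54 and -1.47, and Nrn1 -1.51 and -1.34. None of the 12 falls differed between the 2 kinds of spot beyond the threshold (adjusted p of at least 0.897).

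The difference passed for 21 of 13323 genes (0.158%), 6 with a more positive and 15 with a more negative log2 fold change in meningeal spots. With relative log expression scaling it was 27 genes, 4 more positive and 23 more negative. These fits pool the spread over genes nearly completely, so genes whose sections vary more than most get p-values that are too small. DESeq2 called 4 of them (C4b, Eln, Vim and Ptgds) and limma on 1 log2 ratio per section, a fit added after seeing the data, called 21 genes, 12 of them shared. Leaving out control replicate 1 gave 48 genes and leaving out control replicate 2 gave 16, of which 7 were shared. Leaving out rNLS8 replicate 1 gave 26 and leaving out rNLS8 replicate 2 gave 6, among them Alcam, C4b, Eln, Gfap and Vim. The plot of the log2 fold changes by kind of spot shows the 16 named genes.

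**Figure D4:**
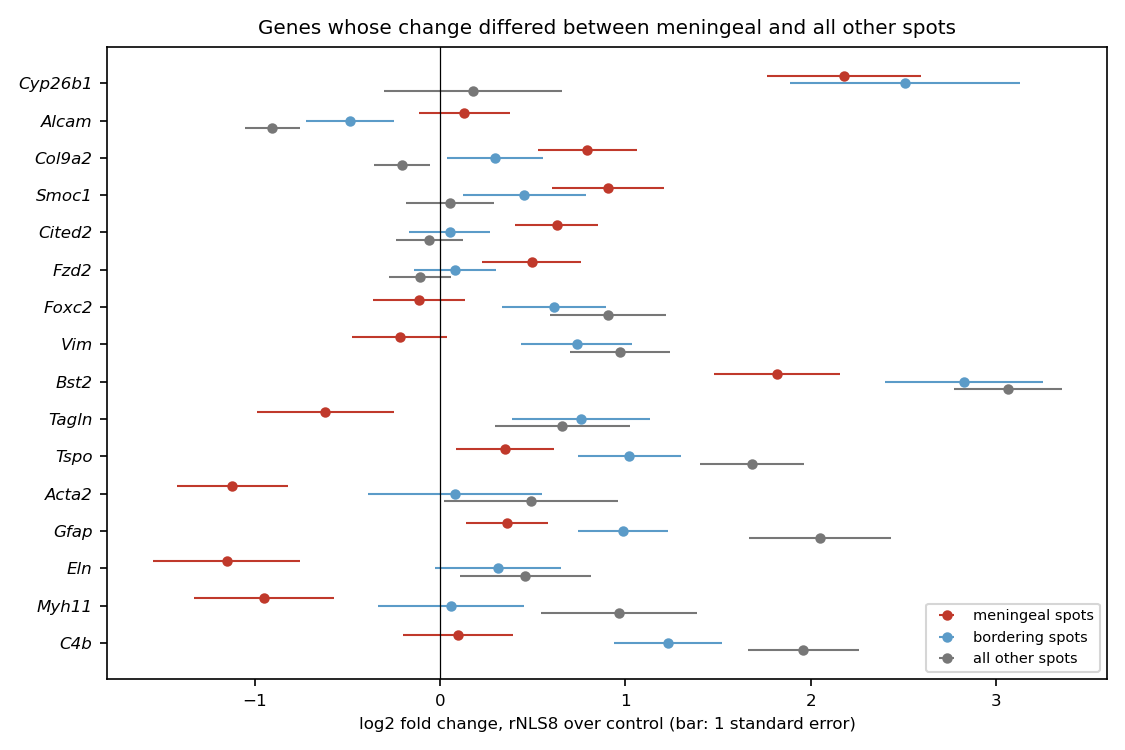
Log2 fold change of rNLS8 over control in meningeal, bordering and all other spots for 16 genes whose change differed between meningeal and all other spots, with bars of 1 standard error. Cyp26b1 stands at 2.18 in meningeal against 0.18 in other spots, and Gfap at 0.36 against 2.05.

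Gfap, the intermediate filament of astrocytes and of the glia limitans, had 1093, 863, 1251 and 1252 CPM in meningeal spots against 164, 149, 392.2 and 903 CPM in all other spots. Both controls were higher in meningeal than in other spots, and the log2 fold change was 0.36 ± 0.22 there against 2.05 ± 0.38 elsewhere, a difference of -1.50 ± 0.12 (edgeR adjusted p = 2.27e-29, limma 0.000136, DESeq2 1.00). C4b, a complement component, had 271, 120.0, 196 and 200.03 CPM in meningeal and 38.7, 26.5, 95.4 and 158 CPM in other spots. Its meningeal groups overlapped while its other-spot groups did not, and the difference was -1.75 ± 0.19 (edgeR adjusted p = 1.64e-16, DESeq2 8.32e-06, limma 6.91e-05). The differences of Gfap and C4b also passed without each section in turn, but that of Gfap moved to -0.90 without rNLS8 replicate 2 and to -2.08 without rNLS8 replicate 1. Vim (305, 517, 302 and 418 CPM against 32.3, 41.0, 54.2 and 89.8 CPM) gave -1.12 ± 0.15 (edgeR adjusted p = 6.12e-10), and Tspo, a mitochondrial protein gene raised in reactive glia, gave -1.22 ± 0.25 (adjusted p = 0.00100). Without control replicate 2 the difference of Vim was -0.80 (adjusted p = 0.111). That of Tspo was -1.33 without control replicate 2 and -0.97 without rNLS8 replicate 2, and in both fits it lost its call but not its direction. Over the reactive astrocyte list the median log2 fold change was 0.36 for 11 genes in meningeal spots and 0.97 for 15 genes in all other spots.

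For B2m and Bst2 the log2 fold change was smaller in meningeal spots, 1.97 against 2.75 and 1.82 against 3.06. The differences were -0.66 ± 0.17 and -1.15 ± 0.28 (edgeR adjusted p = 0.0490 and 0.0310). Neither passed with DESeq2. The B2m difference passed only without rNLS8 replicate 1 and lay between -0.87 and -0.43 over the 4 fits that leave out a section. The Bst2 difference passed only without control replicate 1 and lay between -1.48 and -0.32, nearest 0 without control replicate 2. In both genes the level itself was higher in meningeal than in other spots of every section: Bst2 had 7.496, 10.8, 60.5 and 93.4 CPM in the other spots and B2m 40.6, 65.5, 288 and 428 CPM. C1qa also had a smaller log2 fold change in meningeal spots (0.43 against 1.11, adjusted p = 0.0422).

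Cyp26b1 had the largest positive difference among the called genes, 1.80 ± 0.31 (edgeR adjusted p = 1.06e-05, limma 0.0205, DESeq2 1.00). In all other spots it had 14.5, 6.45, 7.92 and 15.7 CPM, with overlapping groups. The difference was 0.91 without control replicate 1 (adjusted p = 0.452), 3.28 without control replicate 2 and 1.59 without rNLS8 replicate 2 (adjusted p = 0.418). Alcam, a cell adhesion gene, had 382, 256, 306 and 381 CPM in meningeal spots and 151, 156, 89.4 and 74.2 CPM elsewhere, where rNLS8 lay below control, and its difference of 1.13 ± 0.15 passed without each section in turn (adjusted p = 5.58e-11 with all 4). Col9a2 (1.06 ± 0.21, adjusted p = 0.000644), Cited2 (0.70 ± 0.15, 0.00572), Fzd2 (0.66 ± 0.16, 0.0422) and Smoc1 (0.82 ± 0.21, 0.0490) also differed, and each of these 4 lost its call without rNLS8 replicate 2, where the differences were 0.91, 0.57, 0.27 and 0.44. Col9a2 and Fzd2 also lost it without control replicate 2 (0.83 and 0.38), Cited2 without control replicate 1 (0.46), and Smoc1 without control replicate 1 or 2 (0.66 and 0.91).

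Meningeal and vessel genes made up the rest of the more negative differences. Ptgds had 711, 417, 837 and 1164 CPM in other spots and a difference of -0.66 ± 0.13 (edgeR adjusted p = 0.000564). Foxc2 had 5.89, 4.91, 7.78 and 12.5 CPM there and a difference of -0.98 ± 0.23 (edgeR adjusted p = 0.0142, DESeq2 0.139, limma 0.000935), so it did not pass with DESeq2. With 1 section left out the difference lay between -0.91 and -0.49 for Ptgds and between -1.14 and -0.90 for Foxc2. Ptgds lost its call without rNLS8 replicate 2 (-0.54), and Foxc2 kept its call only without control replicate 1 (-1.14). The highest marker share left outside the selection was 0.312% in rNLS8 replicate 2 against at most 0.186% in the other sections, and its part in these differences was not tested. Eln, Acta2, Myh11 and Tagln gave differences of -1.58, -1.44, -1.73 and -1.16, and none of these 4 passed without control replicate 2, where the differences were -0.76, -1.14, -0.84 and -0.19. Acta2, Myh11 and Tagln also did not pass without rNLS8 replicate 2 (-0.82, -1.20 and -0.97). Igfbp5 differed by -0.52 (adjusted p = 0.0114).

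A nearer comparison is the ring of 300, 267, 241 and 269 spots that touch a meningeal spot. In these bordering spots alone 16 of 9553 genes passed (0.167%), among them B2m, Bst2, Ifi27, Igfn1 and Pdrg1. The difference between meningeal and bordering spots passed for 9 of 9385 genes (0.0959%), all with a more negative log2 fold change in meningeal spots: Vcam1, Eln, Tagln, Acta2, C4b, Vim, Tpm2, Gfap and Ptgds. C4b differed by -1.14 (adjusted p = 0.00312) and Gfap by -0.66 (adjusted p = 6.84e-05). No gene passed with DESeq2 (27 at an unadjusted p under 0.05), none passed with edgeR without control replicate 2 (510 at an unadjusted p under 0.05) and 2 passed without rNLS8 replicate 2. Leaving out control replicate 1 gave 12 and leaving out rNLS8 replicate 1 gave 10. Cyp26b1 had 5.66, 6.68, 17.6 and 53.9 CPM in bordering spots, a log2 fold change of 2.51 (adjusted p = 0.176), and did not differ there from meningeal spots beyond the threshold (-0.31, adjusted p = 0.994).

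Levels were followed outwards by the number of array steps from the nearest meningeal spot, as plain CPM without trimmed-mean scaling. Cyp26b1 was lower at 1 step than in the meningeal spots of every section: at 2 steps it stood at 7.89, 3.70, 9.41 and 22.2 CPM, against 21.8, 47.2, 100.5 and 259.8 CPM in the meningeal spots. In control replicate 1, where the meningeal value rests on 7 UMI, it stood at 18.1 CPM again at 4 to 6 steps. B2m was highest in the meningeal spots of every section and kept its separation between genotypes at all distances, with 33.8, 59.2, 284 and 472 CPM at 7 or more steps. Gfap at 7 or more steps had 142, 135, 429 and 1158 CPM, so the genotypes lay farther apart there than in the meningeal spots. The neuron genes were lowest in the meningeal spots and lower in both rNLS8 sections than in both controls at every distance.

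**Figure D5:**
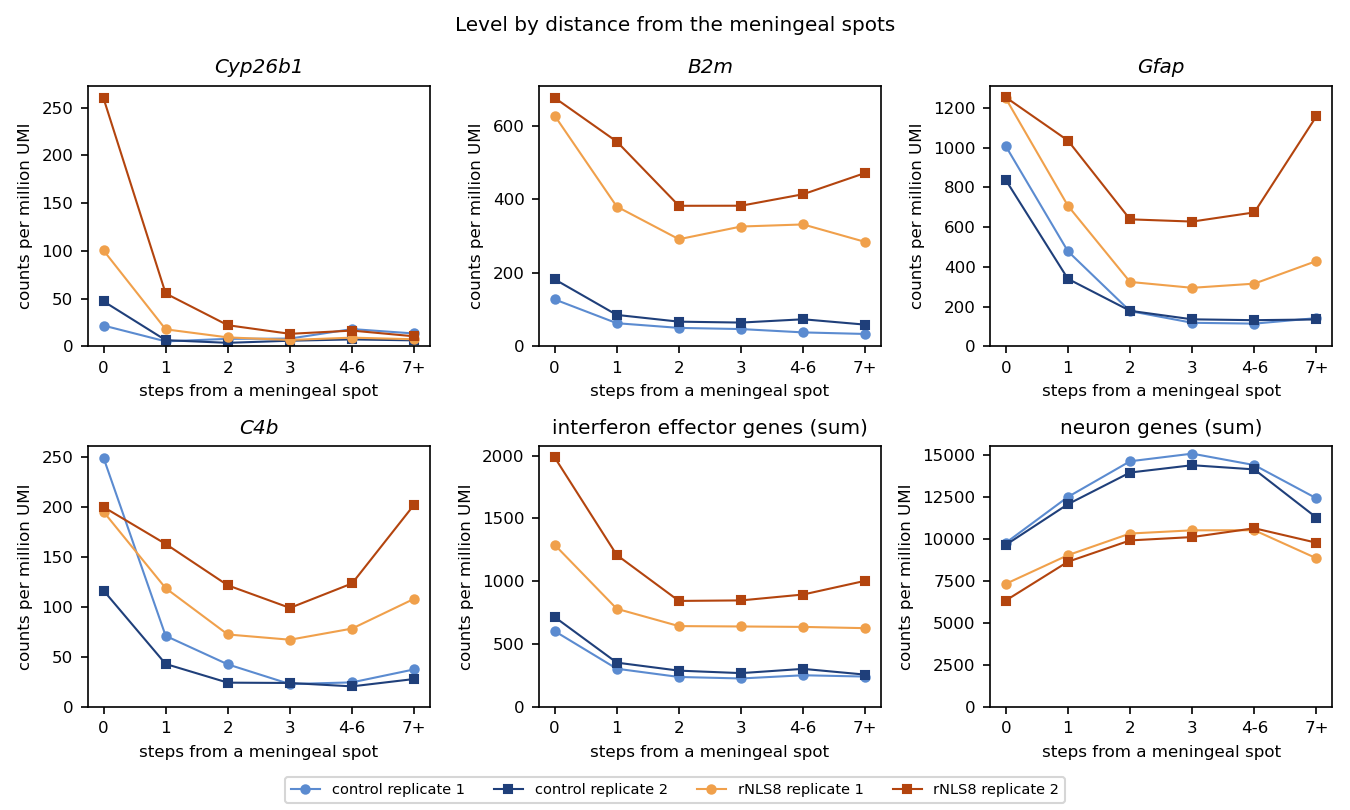
Level in CPM (not scaled further) against the number of array steps from the nearest meningeal spot, with 1 line per section, for 4 genes and the sums of 2 gene lists. Cyp26b1 at step 0 is highest in the rNLS8 sections and falls by step 1 in all 4. B2m and the interferon effectors are higher in rNLS8 at all distances. The groups overlap for C4b at step 0 only, and Gfap separates them least there by ratio, though not by CPM difference.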

How the data were processed

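Raw UMI counts per gene and spot were deposited for each section as feature-by-barcode matrices, made by the authors with Space Ranger 2.1.0 on mm10, per the file headers and the submitters' processing notes. Spots under tissue with at least 1000 UMI were kept, and the meningeal ones were summed per section, giving 320653 to 716590 UMI. Rows sharing a symbol were added together. edgeR 4.0.16 (R 4.3.3) tested the sums by quasi-likelihood after filterByExpr and trimmed-mean scaling, without the 6 selecting genes, with Benjamini-Hochberg adjustment over all genes tested and a threshold of 0.05. Differences of effect between kinds of spot were fitted on 8 sums with the section as a block. DESeq2 1.42.0 and limma 3.58.1 gave alternatives, as did other spot rules, scaling, low-count filter and each section left out. The procedure was tested on simulated data with changes larger than most called here, in well-counted genes and with the same spread for all genes. That test could not check the p-values of genes with few counts or with sections that vary more. CPM are scaled by the trimmed-mean factors except for the selecting genes and the values by distance. Named genes were the called ones, up to 10 per direction of a comparison, filled to 10 with those of smallest unadjusted p, and, of each list, its called, most abundant or defining members. The members and the gene lists were chosen with earlier results of these data known. Promoter sequences and gene positions are RefSeq's on GRCm38.p6. Counts limit precision: intervals are 95% exact binomial ones, and a count of 0 allows up to 3 UMI. Some genes that meet the rule for named genes are not reported here.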

Additional observations from a re-analysis of the deposited data

Results flagged for a closer look

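For the genes given here the change between control and rNLS8 differed between kinds of spot by a test of the difference itself (edgeR, adjusted p under 0.05). Against all other spots the log2 fold change in meningeal spots was higher by 1.80 for Cyp26b1, 1.13 for Alcam, 1.06 for Col9a2, 0.82 for Smoc1, 0.70 for Cited2 and 0.66 for Fzd2. The difference was -1.75 for C4b, -1.73 for Myh11, -1.58 for Eln, -1.50 for Gfap, -1.44 for Acta2, -1.22 for Tspo, -1.16 for Tagln, -1.15 for Bst2, -1.12 for Vim and -0.98 for Foxc2.

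Against the bordering spots the difference was -2.25 for Vcam1, -1.53 for Eln, -1.41 for Tagln, -1.22 for Acta2, -1.14 for C4b, -0.99 for Vim, -0.79 for Tpm2, -0.66 for Gfap and -0.39 for Ptgds. Vcam1 rested on few counts, with 10 and 36 meningeal UMI in the controls and 13 and 17 in rNLS8. It passed with neither DESeq2 nor limma (limma adjusted p = 0.434), and its difference lay between -2.68 and -1.41 with 1 section left out. In Eln, Acta2, Myh11 and Tagln control replicate 2 had the highest meningeal level of the 4 sections. The parts played by that section and by the depth of control replicate 1 were not tested beyond leaving each section out.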

How the results depend on the processing

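The 19 genes called in meningeal spots became 44 with the top 8% of spots, 32 with only spots that have a meningeal neighbour and 109 with no filter on low counts, and ranged from 5 to 353 when 1 section was left out. The top 2% of spots gave 20, of which 13 were shared, and ended the calls of Bst2, Irf7, Lgals3bp, Igfn1, Nefl and Rasgef1a (adjusted p of 0.0524 to 0.133). A common cutoff gave 28 and ended that of Bst2 (0.0509). With 2 sections a group, such a fit assumes that the lone section varies like the others. The difference from all other spots was called for 21 genes, for 4 with DESeq2 and for 6 to 48 with 1 section left out. The difference from bordering spots was called for 9 genes, for 0 with the top 2% of spots (edgeR, 436 at an unadjusted p under 0.05), 2 with 1 cutoff for all sections, 5 with a minimum of 500 UMI, 3 with only spots that have a meningeal neighbour, 0 with DESeq2 (27 at an unadjusted p under 0.05), 2 with limma and 0 to 12 with 1 section left out. The cause of these moves was not tested. The log2 fold change of Lox lay between -0.72 and 6.96 with 1 section left out. The highest value came without control replicate 2, which leaves only a control with 0 UMI.

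The replicate numbers were not used to pair the sections in the main fits. The difference of replicate 1 from replicate 2 in control and in rNLS8 correlated at -0.05 across 8793 genes, which are not independent replicates. A correlation over all genes cannot decide whether sections of the same number share a factor, such as the labelled sex, that acts on part of them. With the replicate number as a block, 0 genes were called in meningeal spots (edgeR, 578 at an unadjusted p under 0.05, smallest adjusted p 0.0633), 15 for the difference from all other spots and 7 for that from bordering spots.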
